A study of Mus musculus with 9 samples.

Results

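The RNA exosome is the main 3′-to-5′ RNA-degrading machine of mammalian cells, and the genes for its 10 subunits, Exosc1 to Exosc10, were followed here in MC38 cells, a mouse colon carcinoma line. The members were the rows of the deposited expression table with these symbols. All 10 were found among the 16509 genes listed, and all 10 were among the 11949 genes that passed the filter on low counts. The gene set and the contrast of Exosc6 with the other subunits were chosen with values of these libraries known, so levels and changes of the subunits are given as a description, with standard errors and no p-values. Counts of subunits that pass a threshold are part of this description and are not read as tests. RNA was sequenced in 9 libraries, with 3 of control cells (Ctrl), 3 of cells given the copper and cystine component (Cu-Cys) and 3 of cells given Cadict, a nanodrug in which copper and cystine are coordinated together with glucose oxidase (GOx) and an EGFR-binding peptide (GE11). All groups share this 1 cell line, and the labels give no engineered allele. Neither the labels nor the study's methods give a dose or a time for these libraries. The study's general methods speak of independent repeats and use n for biological replicates, and its RNA-seq legend gives n = 3. The sources used here do not say for these libraries whether replicates were separate cultures. If they were not, errors and p-values measure only the spread between these samples. The labels name DMSO for the control cells, whereas the study's text names PBS. In the table the treated columns read CC and CCGE. The first was taken as the initials of Cu-Cys, and the second was matched to Cadict from its components.

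In the cell, cap proteins and a ring of proteins that resemble bacterial RNase PH stack into a barrel through which RNA is threaded. In mammals this barrel has no exonuclease activity of its own. The cutting is done by nucleases bound to it, which are DIS3 or DIS3L at the ring end and EXOSC10 in the nucleus. The ring is built from pairs, EXOSC4 with EXOSC9, EXOSC5 with EXOSC8 and EXOSC6 with EXOSC7. The machine trims ribosomal and small nucleolar RNA precursors, clears promoter upstream transcripts and removes faulty mRNAs, and adaptor complexes decide which RNA is fed to it.

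One subunit has a special place in the genome. In GENCODE M21 (GRCm38), Exosc6 is a gene of 1 exon on the plus strand of chromosome 8, at chr8:111056339-111057664, and it lies wholly inside exon 21, the last exon, of Aars-201, a transcript of the alanyl-tRNA synthetase gene Aars on the same strand (chr8:111055019-111057664, 2646 bases). All 1326 bases of the Exosc6 transcript recur as positions 4425 to 5750 of Aars-201, which is 5750 bases long. The start of the Exosc6 reading frame is shown because the same letters occur in both transcripts, at position 33 of Exosc6 and position 4457 of Aars-201 (chr8:111056371-111056400, plus strand, GRCm38). Capitals mark the start codon.
Exosc6 coding start: ATGccgggagaccatcgccgcatccgcggg

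A read from this stretch fits both genes. In the deposited table, expected counts (reads estimated per gene, which need not be whole numbers) of Exosc6 and Aars summed to a whole number in each of the 9 libraries, within 0.015. Aars was the only one of the 16509 genes for which this held. Reads were therefore divided between Exosc6 and Aars by the authors' estimation, and each Exosc6 value below is an estimate made beside a far more abundant gene. The submitters' processing notes name GRCm39, and how far the transcripts overlap in the annotation they used is not given in the sources used here.

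The libraries held 17905771 to 18293056 expected counts each. Scaling factors by edgeR's TMM method were 1.262 to 1.274 in Ctrl, 1.206 to 1.209 in Cu-Cys and 0.6395 to 0.6654 in Cadict libraries, so a level in TMM-scaled CPM (a count divided by the scaled library size) is relative to the typical gene. With library totals in place of TMM, the typical tested gene moved by -0.95 on the log2 scale where Cadict was set against Ctrl and by -0.88 where it was set against Cu-Cys. Cadict replicate 2 stood apart from the other Cadict libraries (chi-square per degree of freedom 14.7 and 23.3, against 3.64 between the others) and held the highest CPM of the 3 for 9 of the 10 subunits. Of 8 epithelial markers, 6 were listed, and their summed level was 5.33 to 6.83 CPM in Ctrl, 3.97 to 4.38 in Cu-Cys and 24.0 to 26.1 in Cadict, with Epcam at 0 in Ctrl and Cu-Cys. The epithelial markers of the labelled carcinoma line were thus low or absent in Ctrl and Cu-Cys. Cdh1 had a mean of 4.86 CPM in Ctrl and 12.8 in Cadict, and Krt19 had 1.05 and 10.8. The other listed epithelial markers had means of at most 1.05 CPM in Cadict. The 4 fibroblast markers, led by Col1a2, summed to 687.3 to 721.9 CPM in Ctrl, 413.4 to 418.1 in Cu-Cys and 213.4 to 223.1 in Cadict. Of these, only Acta2 was not lower in Cadict than in Ctrl, with means of 41.8 and 38.1 CPM. The 3 listed immune markers stayed at or below 0.262 CPM. Endothelial markers, 2 of 2 listed, summed to 0.732 to 2.43 CPM over all groups. Their part in the results below was not tested, and fewer cells of a kind and less RNA per cell cannot be told apart in such bulk samples.

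In Ctrl cells, the 10 subunits were present at unequal levels per transcript length. Exosc8, a ring subunit, ranked first at 137.41 to 139.22 TPM (the deposited level per transcript length), followed by the cap subunit Exosc3 at 109.15 to 116.73 TPM and by Exosc10, the nuclear exonuclease, at 91.85 to 101.52 TPM. Exosc9 came next at 84.18 to 91.26 TPM. Exosc7 (79.78 to 83.79 TPM) and Exosc2 (75.71 to 83.43 TPM) overlapped, and they were the only neighbours in this order that did. Exosc1 (46.62 to 47.58 TPM), Exosc6 (42.09 to 46.43 TPM) and Exosc5 (38.11 to 39.64 TPM) formed a lower group, and Exosc4 was lowest at 15.35 to 16.77 TPM.

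**Figure D1:**
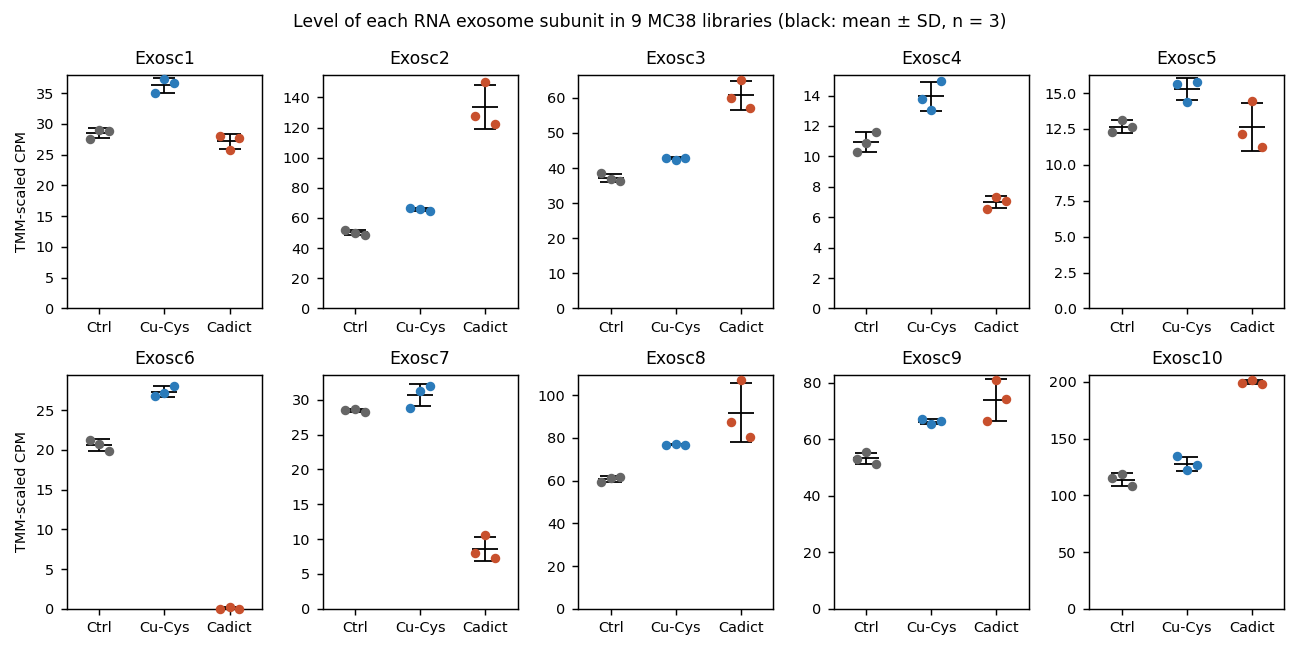
TMM-scaled CPM (y axis, from 0 in each panel) of the 10 subunits in the 3 Ctrl, 3 Cu-Cys and 3 Cadict libraries, 1 point per library with the mean and SD in black. In Cadict, Exosc6 lies at 0 to 0.204 CPM and Exosc7 at 7.22 to 10.5 CPM, while Exosc2 and Exosc10 lie above both other groups, which for Exosc10 does not hold under library totals.

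Exosc6 stood apart in Cadict-treated cells. Its expected counts were 491.48, 479.28 and 454.42 in Ctrl and 578.72, 594.36 and 614.47 in Cu-Cys libraries, against 0, 2.34 and 0 in Cadict libraries. EXOSC6 is a ring protein, the partner of EXOSC7. All Cadict libraries were far below every other library. For directly counted reads, a count of 0 would allow up to 3 counts, or 0.252 to 0.261 TMM-scaled CPM there. Exosc6 counts are estimates from reads shared with Aars, so the values below with 3 counts do not bound the error of that division. The summed rounded counts of 1424 in Ctrl and 2 in Cadict give a ratio of 361.9 after TMM scaling, with an exact 95% interval of 100 to 2991 that covers counting error only. With 3 counts in each Cadict library in place of the estimates, Ctrl was 80.5-fold higher under TMM scaling and 155.9-fold higher under library totals. Among the 8585 tested genes with at least 10 CPM in every Ctrl library, Exosc6 was the only 1 with at most 3 counts in every Cadict library. This count was made after its values were seen.

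The cap subunits, which bind RNA at the entry of the barrel, went separate ways. Exosc2 had 52.3, 50.1 and 48.8 CPM in Ctrl and 128.0, 150.1 and 122.6 CPM in Cadict, a log2 difference of 1.41 (SE 0.07), which was 0.45 under library totals and 0.09 on deposited TPM + 1. The groups did not overlap in CPM, but they did in TPM, at 75.71 to 83.43 in Ctrl and 83.11 to 84.94 in Cadict. Exosc3 had 38.5, 36.8 and 36.2 CPM in Ctrl and 59.8, 65.2 and 57.2 CPM in Cadict (0.71, SE 0.06), a direction that turned to -0.25 under library totals. Exosc1 overlapped between these groups, at 27.6 to 29.05 CPM in Ctrl and 25.8 to 28.0 CPM in Cadict (-0.07, SE 0.06), although its difference was -1.02 under library totals.

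The ring subunits divided in the same way. Exosc7 had 28.5, 28.7 and 28.2 CPM in Ctrl and 8.07, 10.5 and 7.22 CPM in Cadict, a log2 difference of -1.73 (SE 0.10) that was -2.68 under library totals. Exosc4, whose protein pairs with EXOSC9, had 10.3, 10.9 and 11.6 CPM in Ctrl and 6.54, 7.32 and 7.05 CPM in Cadict (-0.65, SE 0.10, and -1.60 under library totals). Both were lower in every Cadict library than in any Ctrl library, in TMM-scaled CPM and in TPM alike.
Exosc8 had 59.4, 61.2 and 61.8 CPM in Ctrl and 87.4, 107.1 and 80.6 CPM in Cadict (0.59, SE 0.08). Exosc9 had 53.0, 55.4 and 51.3 CPM in Ctrl and 66.5, 81.1 and 74.3 CPM in Cadict (0.47, SE 0.07). Both were higher in every Cadict library than in any Ctrl library under TMM scaling, but the differences were -0.36 and -0.48 under library totals. In TPM both were lower in every Cadict library than in any Ctrl library. Exosc8 had 137.41 to 139.22 TPM in Ctrl and 79.52 to 87.69 in Cadict, and Exosc9 had 84.18 to 91.26 and 45.63 to 53.74. Exosc5 overlapped, at 12.3 to 13.1 CPM in Ctrl and 11.3 to 14.5 CPM in Cadict (-0.01, SE 0.10, and -0.96 under library totals).

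Exosc10, the nuclear exonuclease that binds the cap side, had 115.2, 118.5 and 108.0 CPM in Ctrl and 199.0, 201.6 and 198.2 CPM in Cadict (0.81, SE 0.05). Its Cadict libraries lay close together in CPM (199.6 ± 1.78, SD, n = 3) but less so in TPM (69.8 ± 6.11, SD, n = 3), and its difference was -0.14 under library totals.

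A gene was called where it changed at least 2-fold with an adjusted p no higher than 0.001 (quasi-likelihood test of edgeR, adjusted by Benjamini-Hochberg over 11949 genes). By this threshold 1 subunit was called higher in Cadict than in Ctrl, Exosc2, where 20.7% of all tested genes were, and 2 were called lower, Exosc6 and Exosc7, where 27.1% were. Nothing is read from these counts, since the same contrast was known when the members were chosen. The nearest members outside the 2-fold limit were Exosc10, 1.75-fold higher against 2.65-fold for Exosc2, and on the lower side Exosc4, 1.57-fold lower against 3.31-fold for Exosc7. In TMM-scaled CPM, groups did not overlap in 5 members that were higher, beside 40.2% of all genes, and in 3 that were lower, beside 47.3%. Of those 5, Exosc3, Exosc8, Exosc9 and Exosc10 were lower in TPM in every Cadict library than in any Ctrl library, and Exosc2 overlapped. The median log2 fold change of the 10 subunits was 0.23, that of the 9 without Exosc6 was 0.47, and that of all tested genes was -0.13. Without Cadict replicate 2, Exosc2 was at 1.31 and Exosc7 at -1.90, and the median of the 10 was 0.18. The median of the 10 does not depend on the value given to Exosc6, which was the lowest either way. Library totals moved the median of the 10 to -0.72, with 9 of 10 below 0 and all tested genes at -1.08, and turned the calls to 0 higher and 4 lower. They also turned the calls over all genes from 2472 higher and 3235 lower to 828 higher and 6148 lower.

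**Figure D2:**
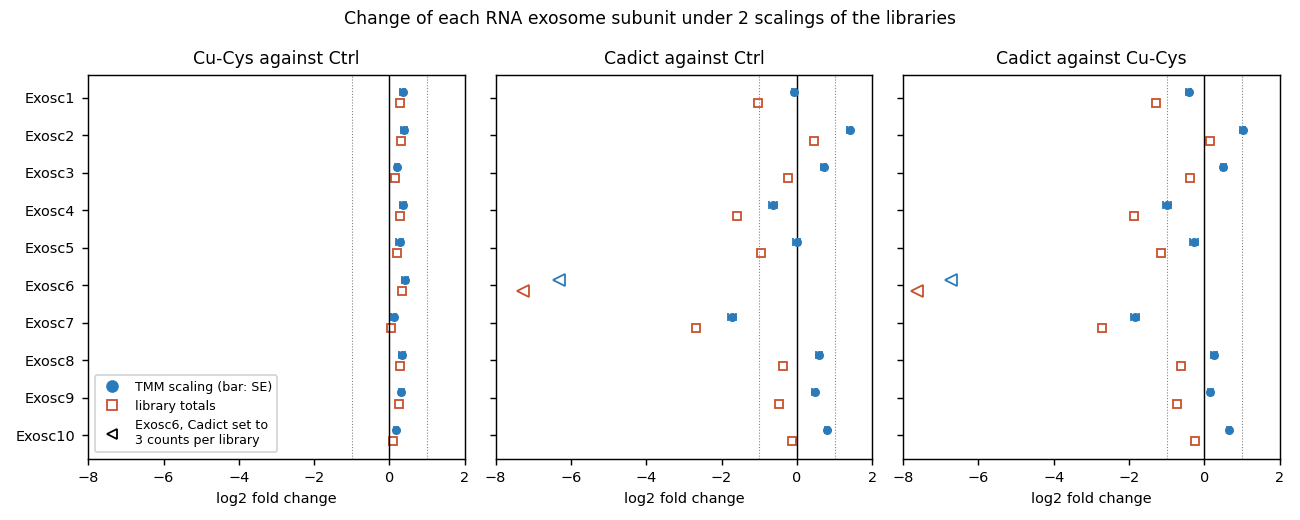
Log2 fold change (x axis) of each subunit (rows) in the 3 comparisons, with TMM scaling as filled circles with SE and library totals as open squares; dotted lines mark a 2-fold change and open triangles give Exosc6 with each Cadict library set to 3 counts. The subunits shift together by about the same step between scalings in both Cadict comparisons, and the order among them, with Exosc6 and then Exosc7 lowest and Exosc2 highest, is kept.

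Values within a library need no scaling between libraries, so the make-up of the complex was also taken as each subunit's share of the summed TPM of the 10. Exosc2 took 10.99%, 10.42% and 10.45% of this sum in Ctrl and 20.44%, 20.83% and 20.27% in Cadict. Exosc7 took 11.04%, 10.84% and 11.01% in Ctrl and 2.45%, 2.81% and 2.23% in Cadict. These subunits were thus at near equal TPM in Ctrl, with 0.969 ± 0.0243 TPM of Exosc2 for each TPM of Exosc7 (SD, n = 3), and apart in Cadict, at 8.29 ± 0.839 (SD, n = 3).
Exosc6 took 5.95% ± 0.156 in Ctrl, 6.48% ± 0.152 in Cu-Cys and 0%, 0.0392% and 0% in Cadict. Exosc4 went from 2.15% ± 0.150 in Ctrl to 1.005% ± 0.0752 in Cadict (SD, n = 3). In contrast, the share of Exosc9 was 11.9% ± 0.310 in Ctrl and 12.0% ± 0.892 in Cadict, and that of Exosc8 was 18.6% ± 0.567 and 20.3% ± 1.14 (SD, n = 3). Of the ring pairs, Exosc4 with Exosc9 and Exosc5 with Exosc8 thus did not move as units in these shares. Exosc6 and Exosc7, which also pair, both had lower shares in Cadict than in Ctrl. Exosc5, the partner of Exosc8, was at 5.20% ± 0.157 in Ctrl and 3.74% ± 0.151 in Cadict, and the cap subunit Exosc1 was at 6.35% ± 0.198 and 4.48% ± 0.583 (SD, n = 3).
By role, the ring's share of the sum was 54.1% to 55.3% in Ctrl, 54.5% to 55.5% in Cu-Cys and 38.5% to 41.1% in Cadict. The cap's share was 31.5% to 32.5%, 32.4% to 32.9% and 42.7% to 43.9% in the same order. Exosc10 alone took 12.7% to 13.6%, 11.8% to 12.7% and 15.5% to 18.1%, and the Cadict libraries stood outside the range of both other groups for all 3 roles. The ring's sum holds Exosc6, with a mean share of 5.95% in Ctrl and at most 0.0392% in any Cadict library. Its counts were divided with those of Aars, and those of Exosc9 are also shared, as described below. Role shares without these subunits were not taken. The summed TPM of the 10 was 743.2 ± 17.5 in Ctrl, 816.0 ± 13.2 in Cu-Cys and 409.3 ± 3.71 in Cadict (SD, n = 3), whereas the summed TMM-scaled CPM was 416.7 ± 8.68, 502.8 ± 5.82 and 615.0 ± 42.2 (SD, n = 3), so the direction of the total in Cadict depended on the scaling.

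**Figure D3:**
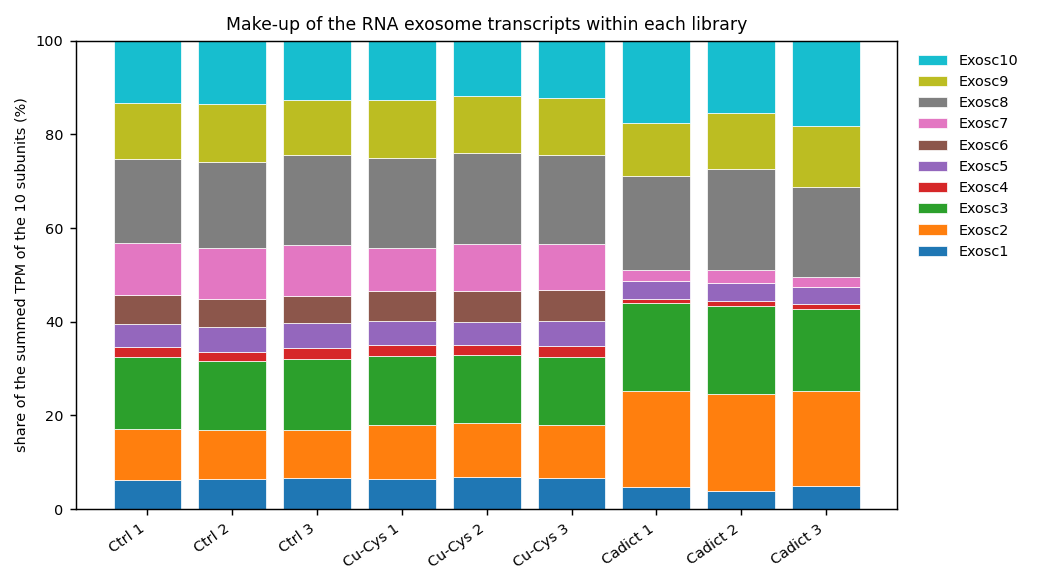
Share of each subunit (stacked bars, percent, y axis) in the summed TPM of the 10 subunits, for each of the 9 libraries (x axis). The Ctrl and Cu-Cys bars look alike, while in the Cadict bars Exosc2 takes 20.3% to 20.8%, Exosc7 2.23% to 2.81% and Exosc6 no visible part.

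Cu-Cys-treated cells showed a smaller and more even difference from Ctrl. All 10 subunits had a higher mean in Cu-Cys, with log2 differences from 0.11 (Exosc7, SE 0.08) to 0.41 (Exosc6, SE 0.08) and a median of 0.33, beside 0.01 for all tested genes. Under library totals all 10 stayed above 0, with a median of 0.26. On the log2 scale of deposited TPM + 1 the median was 0.18 and Exosc7 was at -0.04. Exosc6 had 21.3, 20.7 and 19.8 CPM in Ctrl and 26.7, 27.2 and 28.0 CPM in Cu-Cys. Exosc2 had 66.7, 66.1 and 64.7 CPM in Cu-Cys (0.38, SE 0.07), Exosc1 had 34.9, 37.2 and 36.6 CPM (0.35, SE 0.06) and Exosc8 had 76.7, 77.0 and 76.7 CPM (0.34, SE 0.08). The differences of Exosc10 (0.17, SE 0.05) and Exosc3 (0.20, SE 0.06) were smaller. In TMM-scaled CPM, no Cu-Cys library of any subunit overlapped with Ctrl on the higher side, 10 of 10 beside 31.4% of all genes, while none was lower without overlap beside 29.9%. In deposited TPM, 6 of 10 did not overlap, and Exosc3, Exosc5, Exosc7 and Exosc10 did. At the threshold with a 2-fold limit, 0 were called in either direction by edgeR or by DESeq2, beside 0.167% of all genes higher and 1.47% lower (edgeR). With an adjusted p of at most 0.05 and no limit on the fold change (edgeR), 9 of 10 passed as higher, beside 22.6% of all genes, and 0 as lower, beside 22.4%, and the same 9 and 0 passed an unadjusted p of 0.05. Exosc7 was the exception. As for Cadict, nothing is read from these counts, since the members were chosen with values of these libraries known. Exosc6 thus had the highest difference of the 10 here, next to Exosc2, and was 0.09 on the log2 scale above the median of the other 9. In Cadict against Ctrl, with the Cadict libraries set to 3 counts, Exosc6 was 6.80 below the median of the other 9.

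Between Cadict and Cu-Cys, which share the copper and cystine but not GOx and GE11, the same subunits lay at the ends. Exosc2 was 1.02 higher in Cadict (SE 0.07), which was 0.13 under library totals and -0.15 on deposited TPM + 1. Exosc7 was at -1.83 (SE 0.10) and Exosc4 was at -0.9998 (SE 0.10), just short of a 2-fold change. For Exosc6, 1787 rounded counts in Cu-Cys stood against 2 in Cadict, a ratio of 479.8 after TMM scaling with an exact 95% interval of 132.6 to 3965. The differences of the others ran from -0.41 (Exosc1, SE 0.06) to 0.64 (Exosc10, SE 0.05), which were -1.299 and -0.24 under library totals. Without Cadict replicate 2, Exosc2 was at 0.93, below a 2-fold change and no longer called, while Exosc4 was called at -1.04. Exosc4 also passed the threshold without Cadict replicate 3 (-1.01), Cu-Cys replicate 1 (-1.01) or Cu-Cys replicate 2 (-1.05). Called subunits numbered 1 higher, beside 18.6% of all genes, and 2 lower, beside 23.6%. In TMM-scaled CPM, groups did not overlap in 4 that were higher, beside 39.6%, and in 4 that were lower, beside 45.4%. Exosc5 and Exosc9 overlapped. The 4 that were higher, Exosc2, Exosc3, Exosc8 and Exosc10, were lower in TPM in every Cadict library than in any Cu-Cys library. Under library totals, 9 of 10 subunits were below 0, Exosc10 among them, and the calls turned to 0 higher and 5 lower. Both Cadict comparisons use the same Cadict libraries, and the comparisons against Ctrl use the same Ctrl libraries, so their values are set side by side only.

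Because Exosc6 shares reads with Aars, both genes were read together. Aars, which charges tRNA with alanine, had 17588.52, 18369.72 and 17484.58 expected counts in Ctrl, 19793.28, 17858.64 and 18615.53 in Cu-Cys and 26473, 26152.66 and 26884 in Cadict. It rose by 1.55 in Cadict against Ctrl (SE 0.05, adjusted p = 1.8e-13, edgeR) and was at 0.15 in Cu-Cys (SE 0.05, adjusted p = 0.0218, edgeR), and under library totals the first value was 0.60. Exosc6 made up 2.72%, 2.54% and 2.53% of the counts of both genes in Ctrl, 2.84%, 3.22% and 3.19% in Cu-Cys and 0%, 0.00895% and 0% in Cadict. The sum of both was 793.4 ± 19.6, 887.0 ± 48.9 and 2262 ± 15.5 TMM-scaled CPM in the same order (SD, n = 3). Dividing each gene's count by its FPKM gives the effective length the authors' estimation used. It was 3467 to 3476 bases for Aars in Ctrl, 3460 to 3502 in Cu-Cys and 3470 to 3474 in Cadict. Aars-201, the GENCODE M21 transcript that holds Exosc6, is longer, at 5750 bases. Which Aars transcripts the deposited counts came from was not tested. Relative to Gapdh, which corrects for fragment length, Aars was 2384 to 2385 bases longer in Ctrl, 2378 to 2395 in Cu-Cys and 2369 to 2371 in Cadict, whereas the same difference for Exosc10 was 1380 to 1383, 1379 to 1380 and 1380 to 1382. The difference between Aars and Gapdh was thus slightly smaller in every Cadict library than in any other library, whereas the ranges of the Aars length itself overlapped. Whether reads of Exosc6 were credited to an Aars transcript in Cadict was not tested, since that needs the reads.

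**Figure D4:**
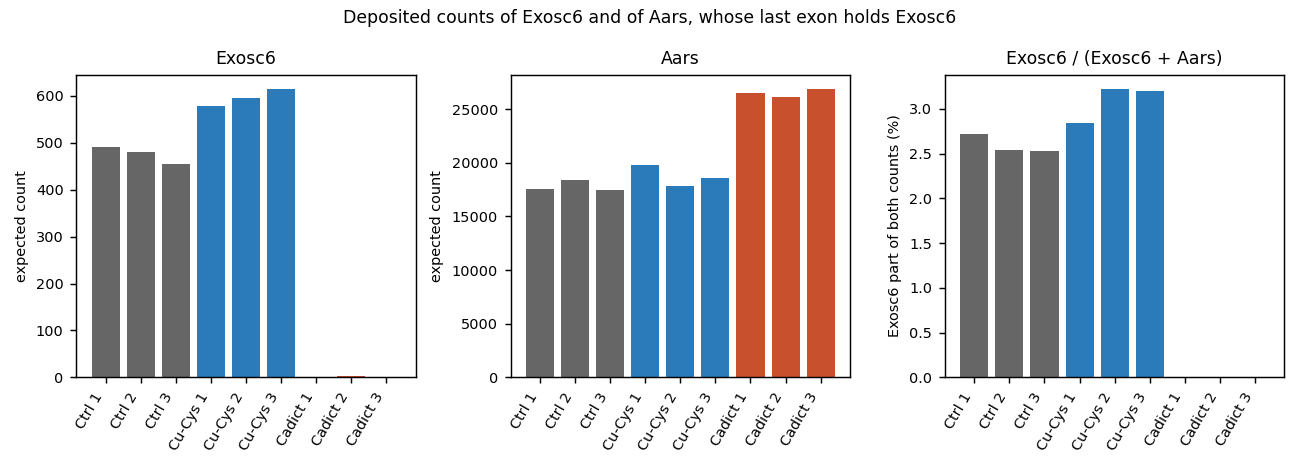
Deposited expected counts of Exosc6 (left) and Aars (middle) and the percentage of both counts assigned to Exosc6 (right), 1 bar per library, with Ctrl in grey, Cu-Cys in blue and Cadict in orange. The Exosc6 bars are at 454.42 to 614.47 counts in Ctrl and Cu-Cys and at most 2.34 in Cadict, where the Aars bars are the tallest.

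One other member had counts that were not whole. Exosc9 did so in 8 of 9 libraries, and its sums with Ccna2, the cyclin A2 gene, were whole in every library. In GENCODE M21 the genes overlap on opposite strands over 378 bases, 23.4% of the Exosc9 transcript. Exosc9 had 1224.51, 1280.34 and 1176.77 counts in Ctrl and 782.08, 931.09 and 884.84 in Cadict, while Ccna2 went from 9579.49, 9353.66 and 9721.23 to 607.92, 720.91 and 691.16. Ccna2 fell by 2.85 on the log2 scale (adjusted p = 2.5e-15, edgeR), and Exosc9's part of both counts went from 10.8% to 12.0% in Ctrl to 56.1% to 56.4% in Cadict. The other 8 subunits had whole counts in every library.

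Structure and surroundings differed between members as well. The main Exosc6 transcript had a GC content of 64.9%, higher than 99.6% of tested genes with a matched transcript, and the other 9 lay between 44.5% (Exosc9) and 55.1% (Exosc5). Exosc6 has 1 exon and the others have 3 (Exosc4) to 25 (Exosc10). Of 11949 tested genes, 11534 (96.5%) were matched to a GENCODE transcript, and of these, 190 had a single exon, of which 49.5% were called lower and 16.3% higher in Cadict against Ctrl, with a median log2 fold change of -1.17. Genes with more exons were called lower in 26.8% and higher in 20.4% (median -0.12). In the fifth of genes with the highest GC content, 35.1% were called lower, against 21.8% in the lowest. These groupings were chosen after the values were seen and carry no test.
The start sites of 5 subunit genes lie within 1 kb of a gene on the opposite strand. Exosc7 starts 10 bases from Zdhhc3, a palmitoyltransferase gene that was also lower in Cadict (log2 difference -1.49, adjusted p = 1.8e-11, edgeR). Exosc8 starts 146 bases from Alg5, which was 1.297 higher (adjusted p = 1.4e-10, edgeR), and Exosc1 184 bases from Zdhhc16, which was at -0.72 (adjusted p = 1.8e-07, edgeR). For Alg5 the value under library totals was 0.34, and for Zdhhc16 it was -1.67. Exosc5 starts 210 bases from Bckdha (-0.49, adjusted p = 0.00254, edgeR, and -1.44 under library totals), and Exosc4 618 bases from Oplah, which was too low to be tested.

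The profile of Exosc6 over the 9 libraries was compared with that of all tested genes averaging at least 10 CPM, as the root mean square difference of centred log2 CPM, where 0 is an identical profile. Hps6 was nearest at 0.90, followed by Klf2 (0.93), Cep78 (1.05), H1f0 (1.09) and Jrk (1.15). Hps6 had 431, 461 and 432 counts in Ctrl, 383, 391 and 421 in Cu-Cys and 5, 4 and 1 in Cadict. Unlike Exosc6, all 5 genes had more than 3 counts in at least 1 Cadict library, and their differences between Cu-Cys and Ctrl were -0.32 (Klf2) to 0.06 (H1f0), below the 0.41 of Exosc6. The nearest subunit was Exosc7, at rank 656 (2.64), and the farthest was Exosc2, at rank 7141 (4.04).

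The nucleases and adaptors that work with the barrel were described from a list of 28 genes, all of which were tested. In Cadict against Ctrl, 5 of 28 (17.9%) were called higher and 5 (17.9%) lower, beside 20.7% and 27.1% of all genes, with a median log2 fold change of 0.41 beside -0.13. Under library totals these counts were 1 higher and 12 lower, with a median of -0.54. With limma on deposited TPM + 1 they were 0 higher and 13 lower. The processive nucleases at the ring end were both lower. Dis3l, the cytoplasmic form, fell by 1.77 (SE 0.10, adjusted p = 7.6e-11, edgeR), and Dis3, the nuclear form, was 0.51 below Ctrl on the log2 scale (log2 difference -0.51, SE 0.07, adjusted p = 5.1e-06, edgeR) without reaching a 2-fold change. Per length, Dis3 was at 62.36, 58.67 and 66.47 TPM in Ctrl and 19.04, 13.66 and 21.30 TPM in Cadict, so that Exosc10 had 1.58 ± 0.179 TPM for each TPM of Dis3 in Ctrl and 3.96 ± 0.579 in Cadict (SD, n = 3).

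Among the nuclear partners, Nop53, a ribosome biogenesis factor that recruits the exosome to pre-ribosomes, rose by 2.17 (SE 0.07, adjusted p = 1.2e-13, edgeR), and the helicase gene Mtrex, which unwinds RNA for the nuclear exosome, rose by 1.21 (SE 0.05, adjusted p = 1.3e-12, edgeR). Utp18, which also binds the helicase, rose by 1.16 (SE 0.05). Under library totals these values were 1.22, 0.26 and 0.21. In deposited TPM the mean of Nop53 went from 112.5 in Ctrl to 203.2 in Cadict. By that measure Mtrex went from 86.4 to 81.3 and Utp18 from 52.2 to 47.5, the other direction. Nrde2, an inhibitor of the helicase, fell by 1.61 (SE 0.14, adjusted p = 2.8e-08, edgeR). C1d (0.10, SE 0.10) and Mphosph6 (-0.05, SE 0.07) are both bound to the nuclear exosome. Neither passed an adjusted p of 0.05 under TMM scaling (edgeR). Their values were -0.86 and -1.0006 under library totals. In deposited TPM the mean of C1d was 22.95 in Ctrl and 9.85 in Cadict, and that of Mphosph6 was 56.45 and 21.87.
Of the adaptors that feed nuclear RNA to the barrel, NEXT targets short unpolyadenylated transcripts. The genes listed under it, Zcchc8 and Rbm7, were at -0.91 (SE 0.07) and -0.45 (SE 0.07). Both passed an adjusted p of 0.05 but neither was called under TMM scaling. Under library totals they were at -1.86 and -1.41, and both were called lower. In deposited TPM the mean of Zcchc8 was 27.0 in Ctrl and 6.16 in Cadict, and that of Rbm7 was 73.8 and 21.9. PAXT, which targets polyadenylated nuclear RNA, was mixed. Zc3h3 fell by 1.73 (SE 0.11, adjusted p = 4.5e-10, edgeR), while Rbm26 (0.91), Rbm27 (0.84), Pabpn1 (0.68) and Zfc3h1 (0.48) were above Ctrl with an adjusted p under 0.05 and below a 2-fold change, and all 4 were below 0 under library totals. For TRAMP, which adds short tails, Tent4b was at 0.69 (SE 0.05), Zcchc7 at 0.98 (SE 0.07) and Tent4a at -0.13 (SE 0.08). The cap-binding gene Ncbp2 rose by 1.03 (SE 0.05, adjusted p = 2.1e-11, edgeR), which was 0.07 under library totals and 0.99, no longer called, without Cadict replicate 2. Its mean in deposited TPM was 126.6 in Ctrl and 104.2 in Cadict. Zcchc7 passed the threshold without Cadict replicate 1 (1.03) and was at 0.02 under library totals.
In the cytoplasm, the SKI complex threads mRNA into the barrel. Its helicase gene Skiv2l fell by 1.06 (SE 0.08, adjusted p = 2.5e-09, edgeR) and Ttc37 was at -0.41 (SE 0.07), whereas Wdr61, whose protein also serves other complexes, rose by 1.07 (SE 0.06, adjusted p = 3.7e-11, edgeR, and 0.11 under library totals). In deposited TPM the mean of Wdr61 was 90.8 in Ctrl and 75.1 in Cadict. Pelo, a ribosome rescue factor, fell by 1.72 (SE 0.12, adjusted p = 2.2e-09, edgeR), and its partner Hbs1l was at 0.35 (SE 0.05). Under library totals Hbs1l was at -0.60, and Tent4b of TRAMP was at -0.26.
In Cu-Cys against Ctrl, 0 of the 28 were called by edgeR or by DESeq2, and 15 were higher and 2 lower at an unadjusted p under 0.05 (edgeR). With an adjusted p of at most 0.05 (edgeR), 13 were higher, beside 22.6% of all genes, and 2, Skiv2l and Ttc37, were lower, beside 22.4%, with the largest difference at Utp18 (0.53, SE 0.05, adjusted p = 1.5e-06, edgeR). Between Cadict and Cu-Cys, 1 of 28 (3.57%) was called higher (Nop53), beside 18.6% of all genes, and 4 (14.3%) lower (Dis3l, Nrde2, Zc3h3 and Pelo), beside 23.6%, and under library totals 1 higher and 11 lower. Mtrex was called there, at 1.00, without Cadict replicate 2 or without Cu-Cys replicate 1.

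**Figure D5:**
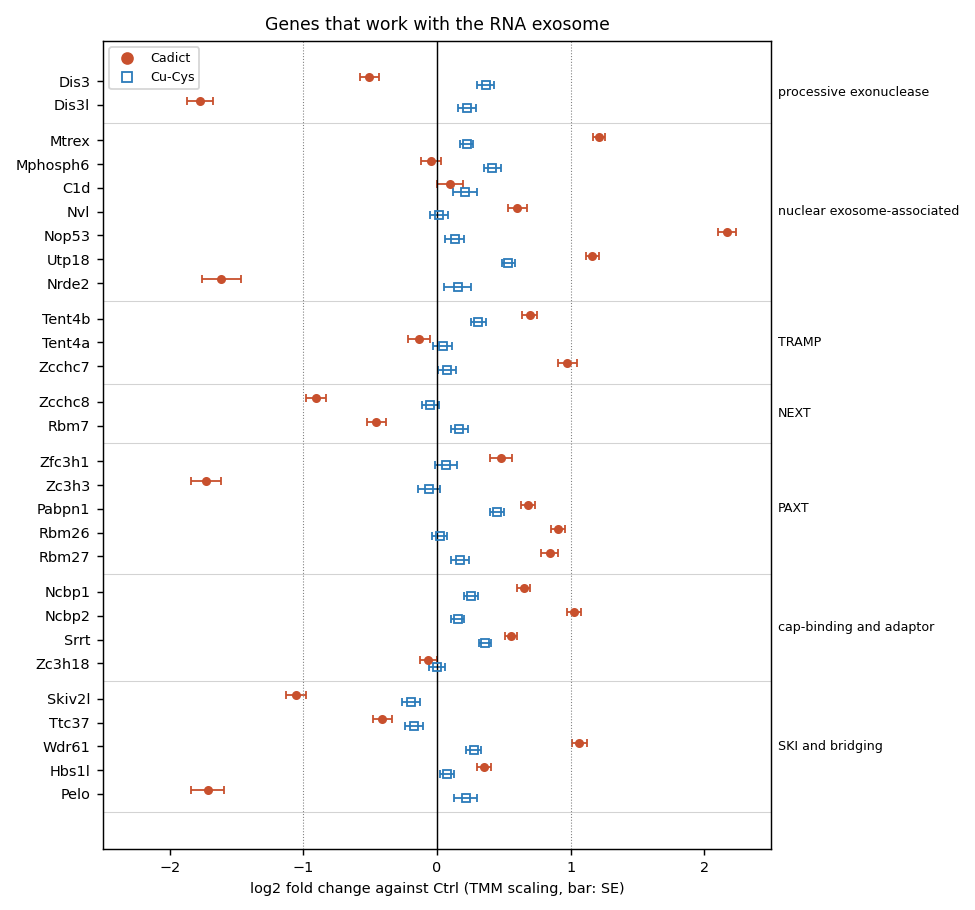
Log2 fold change against Ctrl with SE (x axis, TMM scaling) of the 28 genes that work with the RNA exosome, grouped by role, with Cadict as filled circles and Cu-Cys as open squares; dotted lines mark a 2-fold change. In Cadict the genes spread from -1.77 (Dis3l) to 2.17 (Nop53), while in Cu-Cys all lie between -0.20 (Skiv2l) and 0.53 (Utp18).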

How the data were processed

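RNA of 9 MC38 libraries (3 Ctrl, 3 Cu-Cys and 3 Cadict) was analysed from 1 table. The authors deposited, for each library, an expected count per gene without normalization, an FPKM and a TPM per gene, and a signal, the expected count divided by 1 size factor per library, which was not used, like the authors' group means. The submitters' processing notes list HISAT2 2.1.0, Bowtie2 2.3.4.3, RSEM 1.3.1, GRCh38.p13 and GRCm39, with no role for each. The study's text names TRIzol and an Illumina instrument, whereas the labels name a column kit and DNA nanoballs. Whether counting used strand is not given in the sources used here, so reads of overlapping genes on opposite strands may not be told apart.

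Analysis used edgeR 4.0.16 under R 4.3.3 on the rounded expected counts. Low genes were removed by filterByExpr, libraries were scaled by TMM, and 1 quasi-likelihood fit of the 3 groups gave the 3 comparisons, with Benjamini-Hochberg adjustment over 11949 genes and calls at the limits the study used, a change of at least 2-fold with an adjusted p no higher than 0.001. The total of 17905771 to 18293056 counts per library sets the precision, and intervals and floors of 3 counts cover counting error only. Gene models and the sequence came from GENCODE M21 on GRCm38, which is not the build in the processing notes. On simulated data for Cadict against Ctrl (11788 genes), 195 of 200 genes changed 4-fold were called, with 0 false calls. All other genes had equal simulated means in every group, and the changes went up and down in equal numbers. The simulation thus held no shift like that between Cadict and the other libraries, and it does not bear on the choice of scaling. Replicate libraries differed by more than counting noise in each group (chi-square per degree of freedom 1.89 to 23.3), so none were merged. Genes were named by a rule that took the 10 subunits, a list of 28 cofactors, the 5 genes averaging at least 10 CPM whose profile was nearest to that of Exosc6 (prior count 2), and genes starting within 1 kb of a subunit gene on the opposite strand. Aars, Ccna2 and Gapdh, and marker and other decay genes, are named beside them, the first 3 after values were seen. Members, lists and tests were chosen with earlier results of these data known, and the lists were written from general knowledge. Alternatives were DESeq2 1.42.0 size factors and its Wald test, library totals, other filters and thresholds, limma 3.58.1 on log2 of deposited TPM (pseudocounts of 1 and 0.1) or FPKM (pseudocount of 1), a replicate block and leaving out each library.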

Additional observations from a re-analysis of the deposited data

How the results depend on the processing

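The median log2 fold change of the 10 subunits in Cadict against Ctrl (0.23) was 0.35 with DESeq2 size factors or its Wald test, -0.72 with library totals, -1.06 and -1.09 with limma on TPM + 1 and TPM + 0.1 and -0.71 on FPKM + 1. In Cadict against Cu-Cys (-0.06) it was 0.033 with size factors or the Wald test, -0.94, -1.20, -1.23 and -0.92 in the same order. In Cu-Cys against Ctrl (0.33) it was 0.35 with size factors or the Wald test, 0.26, 0.18, 0.18 and 0.25. Another scaling shifts every gene by a like amount, which by construction moves the median under totals or size factors. Leaving out 1 library gave 0.18 to 0.28, -0.15 to -0.012 and 0.31 to 0.34 in the same order of comparisons, and moved no subunit other than Exosc6 by more than 0.17. Exosc2 in Cadict against Cu-Cys (1.02) turned to -0.15 on TPM + 1 and on TPM + 0.1.

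Exosc6 minus the median of the other 9, with Cadict libraries set to 3 counts, was -6.80 against Ctrl and -6.89 against Cu-Cys. Limma, which uses a pseudocount in place of that limit, gave -4.60 and -4.68 on TPM + 1, -7.49 and -7.58 on TPM + 0.1, and -4.22 and -4.31 on FPKM + 1. The share of Exosc6 was 4.94% in Ctrl and 5.43% in Cu-Cys from TMM-scaled CPM not divided by length. Exosc6 has no value with at least 10 counts required in every library, which removes it.

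With an adjusted p of at most 0.05 and no limit on the fold change, calls rose from 5707 to 10484 in Cadict against Ctrl, from 196 to 5381 in Cu-Cys against Ctrl and from 5041 to 10263 in Cadict against Cu-Cys. Calls in Cu-Cys against Ctrl numbered 119 with at least 10 counts in every library, 117 on TPM + 1 and 71 on FPKM + 1. Cofactors called in Cadict against Cu-Cys (5) numbered 12 with library totals, 13 on TPM + 1 and TPM + 0.1 and 10 on FPKM + 1. The causes of these last counts were not tested.

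Same-numbered replicates correlated at -0.192 to 0.152 in their residuals over 8551 genes. Differently numbered replicates were not compared, so whether same-numbered samples were handled together cannot be told from these values. A replicate block gave 5685, 183 and 5019 calls, for Cadict and then Cu-Cys against Ctrl and last for Cadict against Cu-Cys.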

Other observations

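Other routes of RNA decay were read from a list of 21 genes, all of which were tested. In Cadict against Ctrl, 3 (14.3%) were called higher, beside 20.7% of all genes, and 2 (9.52%) lower, beside 27.1%, with a median log2 fold change of 0.07 beside -0.13, and under library totals 0 were called higher and 9 lower, with a median of -0.89. The genes called higher belong to the LSM ring that binds shortened mRNA tails. Lsm4 rose by 1.51 (adjusted p = 8.0e-10, edgeR), Lsm5 by 1.39 (adjusted p = 1.6e-09, edgeR) and Lsm1 by 1.17 (adjusted p = 1.5e-09, edgeR), and under library totals they were at 0.55, 0.43 and 0.22. In deposited TPM the mean of Lsm4 went from 202.0 in Ctrl to 226.0 in Cadict. By that measure Lsm5 went from 310.6 to 307.8 and Lsm1 from 22.6 to 20.6, the other direction. Of the other members of that ring, Lsm3 (0.59) and Lsm7 (0.79) passed an adjusted p of 0.05 below a 2-fold change. Lsm2 (0.07) and Lsm6 (0.02) did not pass it. Under library totals these were at -0.37, -0.17, -0.88 and -0.93. Dis3l2, a 3′-to-5′ nuclease that works without the exosome barrel, fell by 3.01 (adjusted p = 1.9e-11, edgeR), and Dcp1b, a decapping cofactor, was called lower (adjusted p = 7.2e-05, edgeR). Dcp1b had 70 counts summed over Ctrl and 3 over Cadict, a ratio of 11.9 after TMM scaling with an exact 95% interval of 3.9 to 58.9 for counting error only. The 5′-to-3′ exonuclease genes lay on opposite sides, with Xrn1, the cytoplasmic form, at -0.78 (adjusted p = 8.7e-08, edgeR) and Xrn2, the nuclear form, at 0.90 (adjusted p = 4.7e-10, edgeR, and -0.05 under library totals), neither past a 2-fold change. In Cu-Cys against Ctrl, 0 of 21 were called by edgeR, and with an adjusted p no higher than 0.05, 4 were higher and 1 was lower.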
